A study of Homo sapiens with 6 samples.

Results

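Keratins form the intermediate filaments of epithelial cells. Each filament is built from pairs of a type I and a type II keratin, and the pairs in use differ between simple epithelia, such as the lining of the stomach, and stratified epithelia, such as the skin. The filaments are anchored to desmosomes and hemidesmosomes and give the cell sheet its mechanical strength. The genes described here are KRT80, a type II keratin found near cell margins in many epithelia, and 9 further keratins, most of them known from simple or glandular epithelia. They were taken by symbol: KRT80 was chosen by its difference between celecoxib and control arrays, the others because they belong to its family. A gene was counted as measured if at least 1 transcript cluster carried its symbol and no other, and among several such clusters the one brightest on average was taken. By this rule 8 of the 10 genes were measured, out of 18417 genes in all: 4 of type II (KRT80, KRT8, KRT7 and KRT5) and 4 of type I (KRT18, KRT19, KRT20 and KRT23). KRT81 and KRT17 were not analysed here. Because the contrast between celecoxib and control arrays chose KRT80, the values of the keratins are given as a description, with no test.

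The arrays held RNA of AGS, an established line of human gastric carcinoma cells. In the celecoxib group (3 arrays), cells were given 20 µM celecoxib, an inhibitor of the enzyme COX-2, for 24 h. The control group (3 arrays) is labelled as given nothing. All cells had been grown for 48 h after seeding, and 250 ng of total RNA was labelled for each HuGene-1_0-st array. The drug came from a DMSO stock, and the labels do not say that controls were given DMSO, so drug and solvent cannot be told apart. The labels call the arrays biological replicates and also mention that samples were pooled after the RNA check, so p-values measure only the spread between these arrays, which may be technical.

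The values are log2 levels from RMA, a procedure that corrects background, makes the arrays' distributions alike and sums up the probes of a transcript cluster. Array medians over all clusters lay between 6.75 and 6.82, and Pearson's r between arrays across clusters between 0.985 and 0.996. Celecoxib 1 stood furthest from the other arrays on the first principal component, at 23.9, against 2.70 and -3.92 for the other celecoxib arrays and -16.4 to 1.78 for the controls. The epithelial identity of the cells was read from 6 measured markers, all 6 of which lay above the median of all cluster means (6.79). The cell surface marker EPCAM averaged 11.9 ± 0.02 in celecoxib arrays and 11.9 ± 0.08 in control arrays, and the junction gene CLDN7 11.5 ± 0.10 and 11.5 ± 0.09 (SD, n = 3). Of 9 measured gastric mucosa markers 3 lay above that median, as did 2 of 7 fibroblast, 2 of 6 leukocyte and 1 of 6 endothelial markers. The leukocyte marker LYZ, which gastric glands also make, was one of them. The summed log2 levels overlapped between the groups for epithelial markers (57.2 to 57.8 in celecoxib arrays and 57.4 to 57.8 in control arrays) and for leukocyte markers (42.0 to 43.2 and 41.8 to 43.1). They also overlapped for fibroblast markers (41.0 to 41.4 and 40.9 to 41.2), endothelial markers (34.3 to 35.0 and 34.5 to 34.9) and gastric markers (58.0 to 59.0 and 58.9 to 60.3).

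KRT80 was lower with celecoxib, and the other measured keratins lay much nearer to their control levels. KRT80 had log2 levels of 6.74, 6.92 and 6.84 in celecoxib arrays 1 to 3, against 7.80, 7.79 and 7.61 in control arrays 1 to 3. The groups did not overlap, and the highest celecoxib array lay 0.69 below the lowest control. The mean was 6.83 ± 0.09 with celecoxib and 7.74 ± 0.11 in controls (SD, n = 3), a difference of -0.90 ± 0.08 (SE of the fit across all genes) or 1.87-fold. This was the fifth most negative difference of the 18417 genes. Since RNA of whole cultures was measured, fewer cells that make KRT80 and less KRT80 RNA per cell cannot be told apart. Without celecoxib 1, the array that stood apart, the difference was -0.86, and over the 6 fits that leave out an array it ranged from -0.97 to -0.86. In the fit across all genes, limma placed 26 of 18417 genes (0.141%) past an adjusted p of 0.05, and 1 of the 8 keratins, KRT80, was among them. That contrast chose the gene, so nothing is read from this count. It was 0 in 5 of the 6 fits without an array, each of them except the one without control 3.

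**Figure D1:**
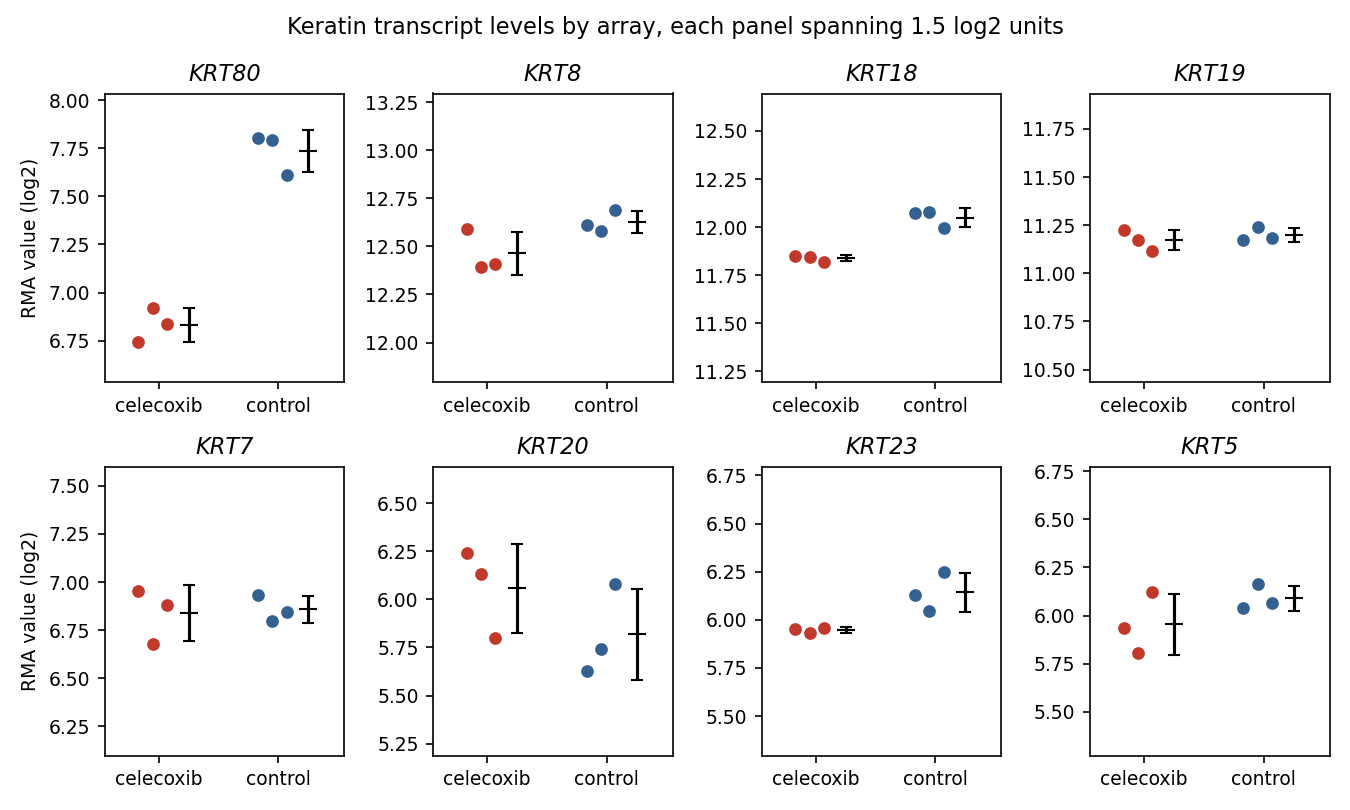
Log2 RMA level of each measured keratin (y axis) in the 3 celecoxib arrays (red, left) and the 3 control arrays (blue, right), replicates 1 to 3 from left to right, with mean and SD in black; each panel spans the same 1.5 log2 units around its own gene. The groups lie apart by 0.69 for KRT80, by 0.14 for KRT18 and by 0.09 for KRT23, and overlap for the other 5 genes.

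KRT8 and KRT18 are the type II and type I partners of the filament that every simple epithelium makes, and both stood slightly below control. KRT18 had 11.85, 11.85 and 11.82 in celecoxib arrays and 12.08, 12.08 and 11.99 in control arrays. Its groups did not overlap, with a gap of 0.14 between them. The difference was -0.21 ± 0.07, with a 95% interval from -0.36 to -0.06. KRT8 had 12.59, 12.39 and 12.41 in celecoxib arrays and 12.61, 12.58 and 12.69 in control arrays. Here celecoxib 1 lay among the controls and the other celecoxib arrays below them. The difference was -0.16 ± 0.08, with an interval from -0.35 to 0.02, and -0.23 without celecoxib 1. The intervals of the partners overlap over most of their length.

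KRT18 was read by further transcript clusters of the same arrays, which share its sequence and are no independent measurement. A dimmer cluster with KRT18 as its single symbol had 11.22, 11.23 and 11.09 in celecoxib arrays and 11.44, 11.59 and 11.34 in control arrays, a difference of -0.28. A cluster that names KRT18 together with the microRNA gene MIR622 differed by -0.19. The groups did not overlap in any of the 3 clusters that name KRT18. KRT8 and KRT18 have many processed pseudogenes, and probes of near-identical copies cannot be separated well. The pseudogene clusters listed under KRT18P55, KRT18P59 and KRT8P41 differed by -0.20, -0.29 and -0.08, with levels between 5.29 and 6.44, and the groups overlapped for KRT18P59.

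KRT19, a type I keratin of ducts and glands that lacks the usual tail, stood at the same level in both groups. It had 11.22, 11.17 and 11.12 in celecoxib arrays and 11.17, 11.24 and 11.18 in control arrays. Celecoxib 1 and 2 lay within the control range and celecoxib 3 below it, and all 6 values fell within a span of 0.12. The difference was -0.03 ± 0.07 (interval from -0.18 to 0.13), and its sign turned without celecoxib 3. KRT7, a type II keratin of ductal epithelia, also overlapped, with 6.95, 6.68 and 6.88 in celecoxib arrays and 6.93, 6.80 and 6.84 in control arrays. Its difference was -0.02 ± 0.09 (interval from -0.23 to 0.19), and its sign turned without control 1, without celecoxib 2 and with cyclic loess normalization.

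KRT20, KRT23 and KRT5 had means below the median of all clusters (6.79), and whether they were above the arrays' background was not determined. The means of KRT7 (6.84 with celecoxib, 6.86 in controls) and the celecoxib mean of KRT80 (6.83) lay just above that median. Background was not determined for them either. KRT20, a type I keratin of the gastric surface and intestinal epithelium, was the 1 keratin of the 8 with a higher mean under celecoxib. It had 6.24, 6.13 and 5.80 in celecoxib arrays and 5.63, 5.74 and 6.08 in control arrays. Celecoxib 3 lay among the controls, and control 3 lay among the celecoxib arrays. The difference was 0.24 ± 0.15, with an interval from -0.10 to 0.58, and it was 0.14 without control 1, 0.15 without celecoxib 1 and 0.37 without control 3 and also without celecoxib 3.

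KRT23, a type I keratin of glandular epithelia and their tumours, was read at 5.95, 5.93 and 5.96 in celecoxib arrays and 6.13, 6.05 and 6.25 in control arrays. The groups did not overlap, by a gap of 0.09. The difference was -0.20 ± 0.07, with an interval from -0.37 to -0.02. KRT5, the type II keratin of basal cells in stratified epithelia, had 5.94, 5.80 and 6.12 in celecoxib arrays and 6.04, 6.16 and 6.06 in control arrays. Celecoxib 3 stood within the control range and the other celecoxib arrays below it. The difference was -0.14 ± 0.09 (interval from -0.35 to 0.08), and it was -0.06 without celecoxib 2 and -0.22 without celecoxib 3.

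Across the 8 keratins, 7 had a lower mean with celecoxib and 1 a higher one, where 52.1% of all genes were lower. The groups did not overlap, with celecoxib lower, in 3 of the 8 (KRT80, KRT18 and KRT23), where that held for 7.95% of all genes. They did not overlap with celecoxib higher in 0 of the 8, against 11.1% of all genes. These counts include the gene the contrast chose, and nothing is read from them. Without KRT80 the differences ran from -0.21 to 0.24 with a median of -0.14, against -0.01 over all genes. That median was -0.06 without celecoxib 2. All 8 passed a filter that left out the dimmest 20% of genes, and 5 passed one at the median signal.

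KRT80 lies at the edge of the type II keratin cluster on chromosome 12, next to KRT7, while KRT8 and KRT18 lie at the other end of it. On its other side the nearest measured gene was ATG101, an autophagy initiation factor, with 8.07 in celecoxib arrays and 8.10 in control arrays and a difference of -0.03 ± 0.07 (limma fit) whose sign turned without control 3. Of 21 measured keratins in this cluster 17 were lower, where 52.1% of all genes were, with a median of -0.07. The count and median of this cluster include KRT80, which the contrast chose, and KRT7, KRT5, KRT8 and KRT18, described above. Nothing is read from them. Apart from KRT80, the differences there ran from -0.24 for KRT79 to 0.24 for KRT85, which was at 0.11 without celecoxib 3. In the type I cluster on chromosome 17, 26 keratins were measured and 19 were lower, against the same 52.1% of all genes. Their median was -0.06, and the range went from -0.20 for KRT23 to 0.24 for KRT20. KRT19, KRT20 and KRT23, described above, are among them, and nothing is read from this count either. No other measured keratin of either cluster had a difference of the size of that of KRT80. KRT80 was chosen for its difference, so its standing apart follows from the choice and adds no support. On chromosome 12, KRT86, KRT81, KRT82, KRT6A, KRT6B and KRT6C were not measured.

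**Figure D2:**
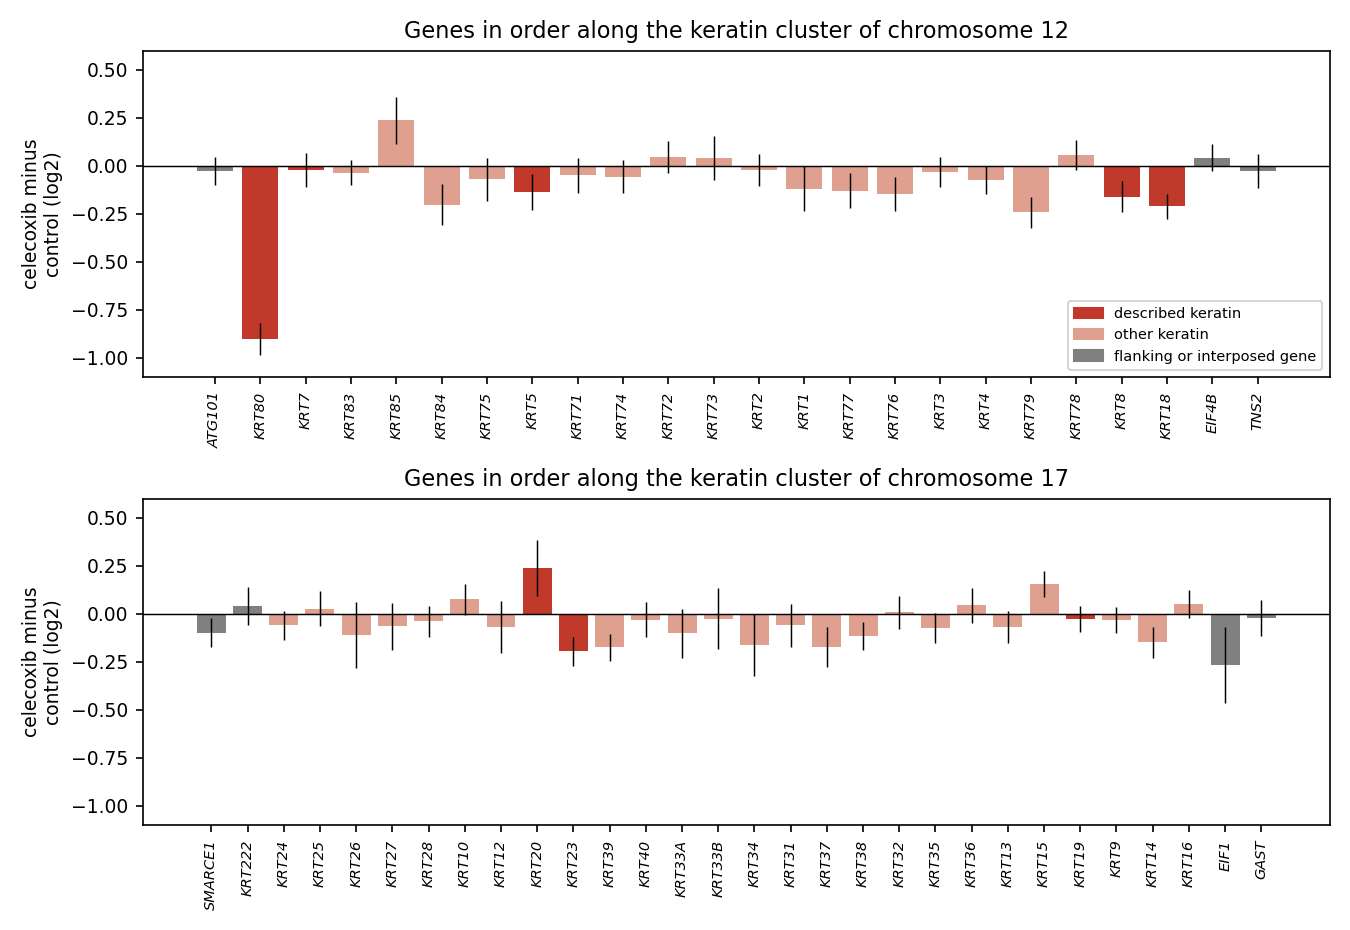
Difference in log2 level, celecoxib minus control (y axis, bars with the standard error of the fit), for measured genes in their order along the keratin clusters of chromosome 12 (top) and chromosome 17 (bottom); dark red bars are the described keratins, light ones other keratins, and grey ones flanking genes and KRT222. Keratin-associated protein (KRTAP) genes within the chromosome 17 cluster are not drawn. KRT80, chosen for its difference, reaches -0.90. Its neighbours ATG101 and KRT7 stand at -0.03 and -0.02, and no other measured keratin lies beyond 0.25 in size.

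Other keratin genes were examined as a list of 44, of which 39 were measured. None passed limma's threshold, while 3 had an unadjusted p under 0.05, where 11.3% of all genes did. The hair follicle and sebaceous gland keratin KRT79 averaged 6.35 ± 0.12 in celecoxib arrays and 6.60 ± 0.06 in control arrays (limma adjusted p = 0.357). KRT39, a hair keratin, stood at -0.17 ± 0.07 (adjusted p = 0.413). KRT15, a basal keratin, was the 1 of the 3 with a positive difference, at 0.16 ± 0.07 (adjusted p = 0.441). All 3 averaged below the median signal, KRT39 among the dimmest 20% of genes. Whether they were above the arrays' background was not determined. The median of the list was -0.06, with 10 members higher and 29 lower, where 52.1% of all genes were lower. With cyclic loess normalization KRT79 moved up to -0.21, KRT39 to -0.15 and KRT15 to 0.18. Whether the counts of higher and lower members hold under that normalization was not computed. Only 5 of its members lay above the median signal.

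Genes for the proteins that keratin filaments attach to were compared next. Of 21 measured genes of desmosomes, hemidesmosomes and plakins, none passed limma's threshold and 2 had an unadjusted p under 0.05, both lower. Such a p was found for 11.3% of all genes, 4.44% of them all being lower. Periplakin (PPL), which links keratins to the desmosome and the cell cortex, averaged 7.71 ± 0.11 in celecoxib arrays and 8.01 ± 0.11 in control arrays, a difference of -0.30 ± 0.09 (limma adjusted p = 0.306). Plectin (PLEC), the linker of keratins to hemidesmosomes, stood at -0.19 ± 0.08 (adjusted p = 0.428) and the hemidesmosomal integrin ITGB4 at -0.26 ± 0.13 (adjusted p = 0.488), or -0.13 without celecoxib 1. Desmoplakin (DSP), the main keratin anchor of desmosomes, differed by -0.09 ± 0.09, and by -0.02 without celecoxib 1 and -0.15 without control 3. The list's median was -0.09, with 6 higher and 15 lower, where 52.1% of all genes were lower.

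Among 12 measured genes for proteins that bind, modify or organise keratins, none passed limma's threshold. An unadjusted p under 0.05 was found for 3, all lower, where 11.3% of all genes had one, 4.44% lower. The adaptor TRADD, which binds KRT18 and the TNF receptor, averaged 7.49 ± 0.07 in celecoxib arrays and 7.77 ± 0.10 in control arrays (limma adjusted p = 0.292). SFN, the 14-3-3 protein of epithelia, averaged 10.2 ± 0.17 and 10.5 ± 0.08 (adjusted p = 0.326). The transglutaminase TGM2 stood at -0.27 ± 0.11 (adjusted p = 0.411). The list had 5 members higher and 7 lower, where 52.1% of all genes were lower, with a median of -0.12.

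Intermediate filament genes other than keratins also gave no call, with 0 of 15 past limma's threshold. An unadjusted p under 0.05 was found for 2, both lower, where 11.3% of all genes had one, 4.44% lower. Nestin (NES), a filament protein of progenitor cells, differed by -0.28 ± 0.09 (limma adjusted p = 0.340). The nuclear lamin genes LMNA and LMNB1 stood at -0.25 ± 0.10 and -0.19 ± 0.08 (adjusted p = 0.421 and 0.441), and LMNA at -0.15 without celecoxib 1. Vimentin (VIM), the filament of mesenchymal cells, differed by 0.03 ± 0.08, with an interval from -0.15 to 0.22, and its sign turned without control 1. The median was -0.05, with 5 higher and 10 lower, where 52.1% of all genes were lower.

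Genes of the cornified envelope, the end stage of squamous differentiation, were listed because KRT80 is linked to differentiating epithelia. Of 15 measured, none passed limma's threshold. An unadjusted p under 0.05 was found for 2, both lower, where 11.3% of all genes had one, 4.44% lower. Filaggrin (FLG), which bundles keratins in the skin, averaged 6.22 ± 0.09 in celecoxib arrays and 6.60 ± 0.11 in control arrays. Its difference of -0.38 ± 0.08 had the smallest adjusted p of all 6 lists (limma adjusted p = 0.199). TGM1, the transglutaminase that joins the envelope, and the envelope protein SPRR1A stood at -0.17 ± 0.07 and -0.21 ± 0.11, and SPRR1A at -0.12 without control 3. Of these 15 genes 2 lay above the median signal. FLG and TGM1 lay below it, and whether they were above the arrays' background was not determined. The median was -0.05, with 3 higher and 12 lower, where 52.1% of all genes were lower.

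Transcription factors known to act on keratin or epithelial genes also gave no call. Of 23 measured, none passed limma's threshold and 2 had an unadjusted p under 0.05, both lower. JUN, a subunit of AP-1, averaged 8.15 ± 0.22 in celecoxib arrays and 8.47 ± 0.10 in control arrays (limma adjusted p = 0.374), and its difference of -0.32 was -0.20 without celecoxib 1. The epithelial factors EHF and OVOL2 stood at -0.31 ± 0.12 and -0.24 ± 0.11 (adjusted p = 0.413 and 0.441). EHF, which averaged below the median signal, was at -0.20 without celecoxib 3, and OVOL2 at -0.14 without control 2. The median was -0.09, with 5 higher and 18 lower, where 52.1% of all genes were lower. Over all 6 lists 125 genes were measured, with 0 past limma's threshold. An unadjusted p under 0.05 was found for 14 of them (11.2%), 1 higher and 13 lower, where 11.3% of all genes had one, 6.87% higher and 4.44% lower. The summed log2 level did not overlap between the groups for the other intermediate filament genes (103.4 to 104.8 in celecoxib arrays and 105.2 to 105.8 in control arrays) or for cornified envelope genes (90.6 to 91.2 and 91.4 to 94.0). It overlapped for the other 4 lists. Among single genes, 7.95% did not overlap with celecoxib lower, and no such share was computed for sums over other lists. A sum of log2 levels also weighs dim genes as much as bright ones. Nothing is therefore read from these sums.

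**Figure D3:**
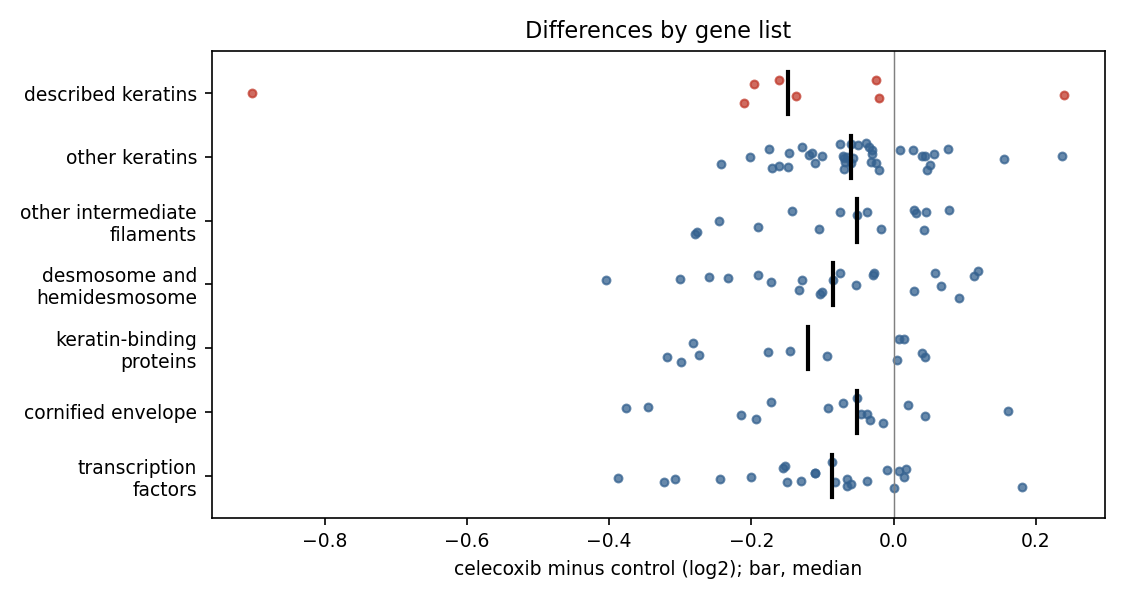
Difference in log2 level, celecoxib minus control (x axis), of each measured gene in the described keratins (red) and the 6 related lists (blue); points are spread vertically for legibility and the black bar is the median of the list. KRT80, chosen for its difference, lies alone at -0.90, and the medians of the 6 related lists lie between -0.12 and -0.05.

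The genes whose values ran most like those of KRT80 were sought among 3374 genes that spanned at least 0.5 log2 units over the 6 arrays. The 8 with the highest Pearson's r over the 6 arrays were MYL9, NEDD9, HEG1, CRYBG2, MYADM, VCL, CSRP1 and FILIP1L. MYL9, the regulatory light chain of smooth muscle and non-muscle myosin, had r = 0.996. NEDD9, a focal adhesion scaffold, had r = 0.995, and the junctional membrane protein HEG1 r = 0.993. VCL, vinculin, which couples adhesions to actin, and CSRP1, a LIM-domain protein that binds actin bundles, both had r = 0.990. These are descriptions over 6 arrays that share the group difference, so any gene with a large fall and a small spread scores high.

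The choice by r over these 6 arrays also favours genes with the same order of arrays within a group and a group difference in the same direction. It does not weigh the size of a difference, and only the span of at least 0.5 bore on size. The order, the direction of the differences and the calls below therefore follow from the choice, and the values add no support. KRT80 was lowest in control 3 among the controls, and so were all 8 genes. Among the celecoxib arrays KRT80 was highest in celecoxib 2, as were 6 of the 8, and lowest in celecoxib 1, as were 7 of the 8. MYL9 had 9.40, 9.45 and 9.47 in celecoxib arrays and 10.19, 10.12 and 10.00 in control arrays. The differences of the 8 genes ran from -1.04 for HEG1 to -0.43 for MYADM, and 3 of the 8 (MYL9, HEG1 and CSRP1) were past limma's threshold, where 0.141% of all genes were. Among the keratins, KRT18 had r = 0.980 with KRT80 over the 6 arrays, KRT23 0.776, KRT8 0.633 and KRT5 0.536. KRT19 had 0.296, KRT7 0.027 and KRT20 -0.62.

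**Figure D4:**
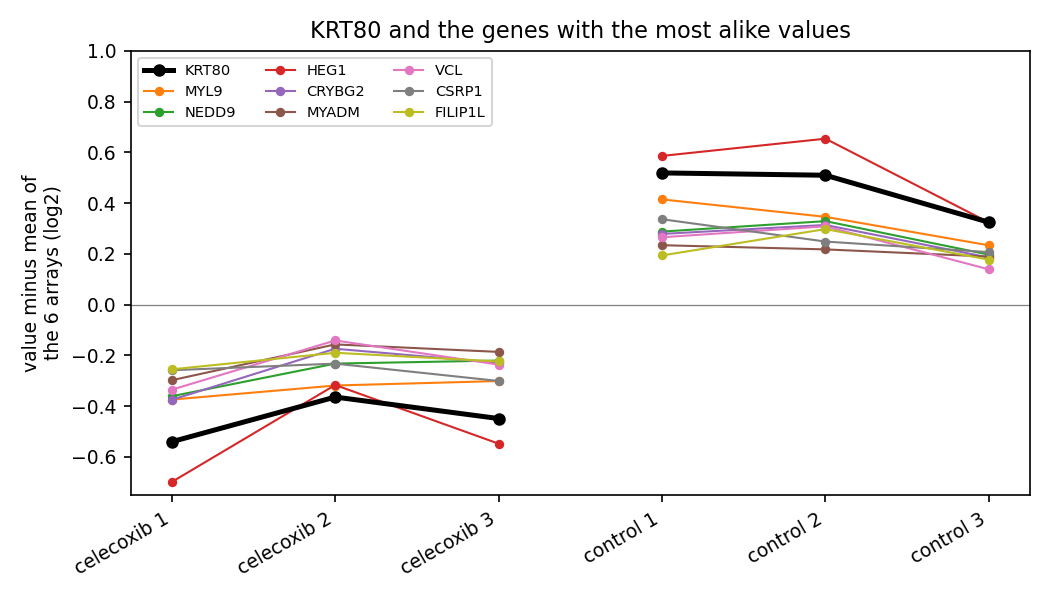
Log2 level minus the gene's mean over the 6 arrays (y axis) in each celecoxib and control array (x axis) for KRT80 (black) and the 8 genes with the highest Pearson's r to it. All 9 genes lie below 0 in the celecoxib arrays and above 0 in the control arrays, and control 3 is the lowest control for each. KRT80 was chosen for its difference and the 8 genes for their likeness to KRT80, so the shared pattern adds no support.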

How the data were processed

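RNA of AGS cells was measured on 3 celecoxib and 3 control HuGene-1_0-st arrays. The deposited table holds log2 values of 33297 transcript clusters, made by the authors with RMA in Affymetrix Expression Console 1.1, per the submitters' processing notes. No scanner files were used, so neither signal over background nor batches were examined, and the number of arrays limits the precision. Clusters with 1 gene symbol in the platform annotation (19460, against 1754 with several and 12083 unnamed) gave 18417 genes, the cluster with the highest mean standing for a gene. No filter on signal was applied. The groups were compared with lmFit and eBayes of limma 3.58.1 (R 4.3.3), two-sided, with Benjamini-Hochberg adjustment over all genes and a threshold of 0.05. Differences are celecoxib minus control. Gene order came from RefSeq's table of GRCh38.p14. The sources used here do not name the build behind the array annotation, and no coordinates are printed.

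Members and lists were chosen with earlier results of these data known. From each list the 3 genes with the smallest p are named, since none passed. DSP, VIM, KRT85 and ATG101 are named beyond that rule or for their place in the gene order. In 5 simulations of 18417 genes, noise was normal and independent between arrays, with each gene's SD taken from the fit. The test recovered 75.8% of changes of 0.5, 99.4% of changes of 1 and 100% of changes of 2 on the log2 scale. Of its calls 6.43% were false. More genes were changed in each simulation than the 26 called in the data, and recovery under Benjamini-Hochberg adjustment depends on that number. Deviations that genes of a real array share, as in celecoxib 1, were not simulated. For both reasons these shares may not hold for the data. Figures were drawn with matplotlib 3.10.9.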

Additional observations from a re-analysis of the deposited data

How the results depend on the processing

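The difference of KRT80 stayed between -0.97 and -0.86 over 15 alternatives, and its sign did not turn. It was past limma's threshold in 8 of 9 alternatives with 6 arrays and in 1 of 6 that leave out an array, so that 0 to 1 of the keratins passed when an array was left out. The count of genes past the threshold moved more. It was 76 when only genes above the median signal were tested, 59 when the dimmest 20% were dropped, and 42 with cyclic loess. An intensity trend in eBayes gave 69, as did the trend with a robust fit, and array weights gave 177. Leaving out an array gave 0 to 5, with 1293 to 2353 genes at an unadjusted p under 0.05. The same-numbered arrays did not deviate together in all pairs (r = -0.017, 0.494 and 0.012), so the numbers were not taken as pairs. With the replicate block 0 genes and 0 keratins passed, with 2448 genes at an unadjusted p under 0.05, and KRT80 differed by -0.90. The median of the other keratins ran from -0.16 to -0.061 when an array was left out. None of the 6 lists had a gene past the threshold in any of the 15 alternatives, among the genes each of them tested. KRT20, KRT23 and KRT5 have no value among genes above the median signal. That alternative also tested only 5 of the 39 other keratins and 2 of the 15 cornified envelope genes. The cause of these shifts was not tested.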
